A study of Mus musculus with 118 samples.

Results

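*Hpse*, the gene of heparanase, and the genes of 8 core proteins that carry heparan sulfate were read in single SOM+ cells of 2 sensory areas of the mouse cortex. The core proteins are the syndecans *Sdc2*, *Sdc3* and *Sdc4* and the glypicans *Gpc1*, *Gpc3*, *Gpc4*, *Gpc5* and *Gpc6*. These 9 genes were taken by name from the 23998 gene symbols of the counts table. Heparan sulfate is a long sulfated sugar chain that binds growth factors, guidance cues and synaptic receptors. Syndecans cross the cell membrane, glypicans are held on its outer face by a lipid anchor, and heparanase is the enzyme that cuts the chains. In a published catalogue of mouse cortical cell types, *Hpse* also lends its name to types of somatostatin interneurons.

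The cells were patched in slices of adult SOM-Cre/Ai9 mice, in which a cell that expresses or has expressed *Sst* carries the red marker tdTomato. This line is known to label some fast-spiking cells as well. After the recording, the content of each cell was drawn into the pipette and its RNA was sequenced (Patch-seq), in layers 4 and 5 (L4, L5) of primary visual (V1) and primary somatosensory (S1) cortex. The labels give no treatment, and the 4 groups share genotype and differ in area, layer and the dates in their titles. Cells were kept with at least 1500 genes with a read, no more *Slc17a7* than *Gad1* plus *Gad2* reads, and an *Sst* read. These were 42 of 44 V1 L4 cells, 34 of 39 S1 L4 cells, 17 of 19 V1 L5 cells and all 16 S1 L5 cells. Each value is that of 1 cell. Animals are not given in the labels. An area and layer therefore counts as 1 sample, no test was run, and a difference is set beside its SD over the dates in the sample titles. The paper states fewer mice for Patch-seq than the titles have dates, so the dates are not all separate animals.

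The kept cells had between 97904 and 3295232 counts, with group medians between 1015272.5 and 1199868.5, and between 1978 and 9200 genes with a read. Of the cells left out, 4 had too few genes, 1 was glutamatergic and 4, all from S1 L4, had no *Sst* read. All 5 genes of the SOM interneuron list (*Sst*, *Gad1*, *Gad2*, *Slc32a1*, *Lhx6*) were read in each group, while the summed level of 4 excitatory neuron genes had a median of 0 CPM (counts scaled to a common library total) in each. Glial genes were read too. The pooled level of 5 oligodendrocyte genes was 239.9 and 1088 CPM in L4 of V1 and S1, and 218 and 696 CPM in L5. The 7 microglia genes stood at 239, 170.4, 520.4 and 132.5 CPM and the 6 astrocyte genes at 388, 295, 136.2 and 142.96 CPM, in the same order. The titles give 9 dates. These were split here into 2 series, June and July against September, and all L5 cells belong to the earlier one.

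Heparanase was the highest of the 9 per gene length. Over all kept cells its mean was 67.9 RPKM, less than its SD over cells, in the unit of the deposited reads per gene corrected for gene length and library size. *Sdc3*, the main syndecan of neurons, followed at 16.3 ± 22.05 RPKM (SD over cells). The means of *Sdc4* (6.53), *Gpc1* (5.96), *Sdc2* (4.64), *Gpc5* (3.46), *Gpc4* (3.23) and *Gpc6* (2.71 RPKM) lay below, and each was smaller than its SD over cells, so that no neighbours in this order differed beyond the spread between cells. *Gpc3* had no read in any kept cell, which by the limit of 3 cells for a count of 0 allows a share of up to 8.82% of cells in S1 L4 and 18.8% in S1 L5, the groups with the fewest cells of their layer. The upper Clopper-Pearson bounds there were 10.3% and 20.6%. By the share of cells with a read the order was another one. *Sdc3* was read in 73 cells (67.0%, 95% Clopper-Pearson interval 57.3 to 75.7) and *Hpse* in 55 (50.5%, 40.7 to 60.2). *Gpc1* was read in 44 cells, *Gpc6* in 35, *Sdc2* in 24, *Sdc4* in 21, *Gpc5* in 14 and *Gpc4* in 9. Intervals of neighbours overlapped in this order except for *Gpc4* (3.85 to 15.1%) and *Gpc3* (0 to 3.33%).

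*Hpse* was close to an on or off signal. It had no read in 54 kept cells and 1 to 5 reads in 7, and in the other 48 cells its count lay between 27 and 1883. Of the core proteins, *Sdc3* was read in more cells than *Hpse* and the other 7 in fewer. The highest count was 771 for *Sdc3*, 662 for *Gpc4* and 392 for *Gpc1*, and in S1 L4 all 662 reads of *Gpc4* came from 1 cell. The intervals are over cells and cover only the counting of cells with and without a read. The PCR reads carry no molecular identifiers and do not count molecules one by one.

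**Figure D1:**
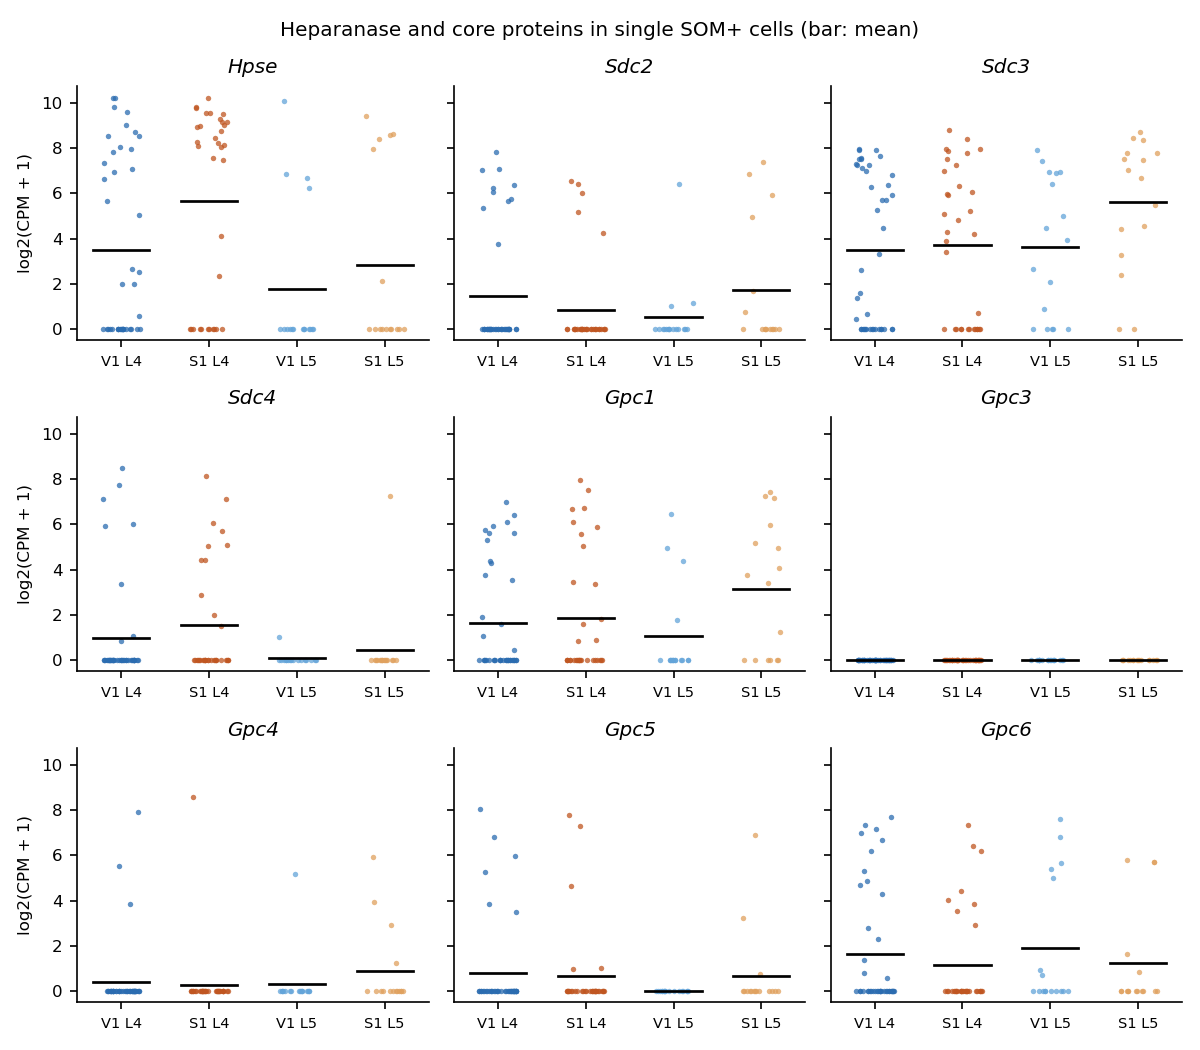
Level of each of the 9 genes in each kept cell, as log2(CPM + 1), by area and layer (points: cells, black bars: means). *Hpse* splits into 54 cells at 0 and 55 with a read, 45 of them in L4, while *Gpc3* is at 0 in every kept cell.

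The median cell had reads of 3 of the 8 core proteins in S1 L5 and of 2 in the other groups, and no cell had reads of more than 5. No core protein was read in 12 cells. *Hpse* and a core protein were read together in 49 cells, *Hpse* alone in 6, a core protein alone in 48 and neither in 6. Per length, the highest core protein of a cell was *Sdc3* in 46 cells, *Sdc4* in 14, *Gpc1* in 13 and *Sdc2* in 11. *Hpse* exceeded every core protein in 44 of the 55 cells in which it was read. Syndecans summed to a mean of 27.5 RPKM and were read in 84 cells, glypicans to 15.4 RPKM in 70 cells.

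The first comparison is between areas in L4. *Hpse* was read in 22 of 42 V1 cells (52.4%, 36.4 to 68.0) and in 23 of 34 S1 cells (67.6%, 49.5 to 82.6). In V1 the lowest value was 0, the median 1.69 and the highest 1214 CPM. In S1 these were 0, 276 and 1217 CPM. Both areas thus spanned the same range, and they differed in how many cells stood high. Among the cells with a read the median was 195 CPM in V1 and 499 CPM in S1. With each cell thinned to 250000 reads, *Hpse* was read in 19 of 42 and 22 of 34 cells. With the 4 S1 L4 cells that lacked an *Sst* read added, the S1 share was 60.5%. On the log2(CPM + 1) scale the V1 mean was 3.50 and the S1 mean 5.67, a difference of 2.17 that was below its SD of 3.58 over 5 dates.

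Within dates the 2 areas did not keep 1 order. S1 minus V1 was -3.49, 1.60, 3.73, 3.66 and -3.21 on dates 2, 3, 5, 7 and 8, and the mean of these values was 0.46. This mean weighs each date alike, and dates 3, 5 and 8 held 6, 2 and 2 S1 cells and 2, 3 and 9 V1 cells. On date 2, *Hpse* was read in 0 of 4 S1 cells and 6 of 11 V1 cells. On date 7 it was read in 7 of 9 S1 cells and 7 of 12 V1 cells. The difference of 2.17 was larger in size than that of 99.2% of the 9201 genes with at least 32 counts in 10 or more of the compared cells. Without the cells that had a *Pvalb* read, parvalbumin being the marker of fast-spiking interneurons, the *Hpse* difference was 4.19. That value rested on 16 S1 and 32 V1 cells. In S1 L4, *Pvalb* was read in 9 of 23 cells with an *Hpse* read and in 9 of 11 without one. Oligodendrocyte genes moved with area as well, with 3 of 5 at least 1 higher in S1 L4, and their part in the difference was not tested.

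No core protein was 1 or more apart between S1 and V1 L4 on the log2 scale. *Sdc3* was read in 26 of 42 V1 and 21 of 34 S1 cells and differed by 0.23. *Sdc2*, a syndecan of dendritic spines, differed by -0.62, *Sdc4* by 0.58 and *Gpc6* by -0.50. *Gpc1*, a glypican of neurons, differed by 0.23, and *Gpc4* and *Gpc5* by -0.16 each. All these values were below their SD over dates. Counted together, 1 of the 9 genes was at least 1 higher in S1 and 0 at least 1 lower. Over the 9201 genes, 8.12% were higher and 7.66% lower by this measure. Of the 9, 6 passed the filter on low counts, and *Gpc3*, *Gpc4* and *Gpc5* did not.

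**Figure D2:**
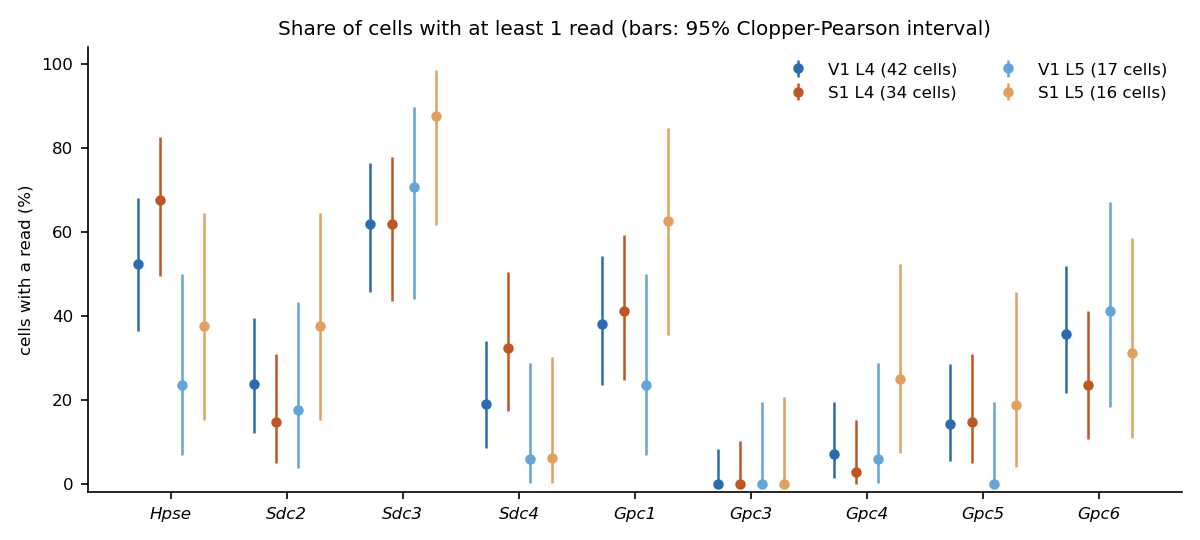
Share of cells with at least 1 read of each gene, in percent, by area and layer (points: shares, bars: 95% Clopper-Pearson intervals over cells). The *Hpse* shares are 52.4% and 67.6% in L4 and 23.5% and 37.5% in L5, and the intervals of V1 and S1 overlap for each gene.

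In L5, *Gpc1* kept the order of the areas on every date. It was read in 4 of 17 V1 and 10 of 16 S1 cells, with a highest value of 88.5 CPM in V1 and 170.7 CPM in S1. V1 had a median of 0 CPM and S1 one of 11.04 CPM, and the values overlapped. Mean log2(CPM + 1) stood at 1.04 in the V1 cells and 3.15 in the S1 cells. This difference of 2.12 was above its SD of 0.53 over 4 dates, and S1 was higher on each, by 1.43, 2.33, 2.67 and 1.96. It was between 1.92 and 2.27 when 1 date was left out, 1.006 with a pseudocount of 10 CPM and 3.37 with one of 0.1 CPM. On these dates *Gpc1* was read in 1, 1, 0 and 2 V1 cells and in 1, 4, 3 and 2 S1 cells. *Gpc1* did not pass the filter on low counts here, and 49.1% of its S1 reads came from 1 cell. *Gpc1* lies on chromosome 1 from 92831645 to 92860779 of GRCm38, on the plus strand, where it overlaps *Ankmy1* of the minus strand, and without strand in the counting the reads of both cannot be told apart.

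*Sdc3* was read in 12 of 17 V1 L5 and 14 of 16 S1 L5 cells. Its values ran from 0 to 242 CPM in V1, with a median of 14.5, and from 0 to 420 CPM in S1, with a median of 116.9. The groups overlapped over nearly the whole range of V1. The difference of mean log2(CPM + 1) was 2.003, with an SD of 2.23 over 4 dates, on which it was 4.31, -0.88, 3.16 and 2.29. Without the cells that had a *Pvalb* read it was 0.98. *Sdc3* lies on chromosome 4 from 130792537 to 130826319, on the plus strand. In the same comparison 3 of 5 oligodendrocyte genes were at least 1 higher and 4 of 7 microglia genes at least 1 lower in S1, and their part was not tested.

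*Hpse* and *Sdc2* were also at least 1 apart in L5, with values that fell below 1 when a single date was left out. *Hpse* was read in 4 of 17 V1 and 6 of 16 S1 cells, with highest values of 1094 and 684 CPM and medians of 0. Its difference was 1.06 (SD over dates 2.43), and 0.37 without date 6, 0.78 without date 3, 0.85 without date 5 and 2.15 without date 4. *Sdc2* was read in 3 of 17 V1 and 6 of 16 S1 cells and differed by 1.22 (SD 1.72), and by 0.65 without date 5 and 0.88 without date 6. In all, 4 of the 9 genes were at least 1 higher in S1 L5 and 0 at least 1 lower. Over 6402 genes 23.6% were higher and 10% lower, and the median difference was 0.24. Of the 9 genes only *Sdc3* passed the filter. *Gpc5* had no read in any V1 L5 cell (a limit of 17.6% of cells by 3 cells and 19.5% by the Clopper-Pearson bound), and was read in 3 of 16 S1 L5 cells.

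Between layers, the mean of *Hpse* was higher in L4 in both areas, by less than its SD over dates. In V1 it was read in 22 of 42 L4 and 4 of 17 L5 cells, and the mean log2(CPM + 1) was 3.50 in L4 and 1.76 in L5. The difference of -1.74 was below its SD of 4.38, which rests on only 2 dates with opposite signs, -3.66 and 2.52. It was -1.10 without date 6, and the mean within dates was -0.57. In S1 *Hpse* was read in 23 of 34 L4 and 6 of 16 L5 cells, and L5 minus L4 was -2.85 (SD 3.51). On dates 3, 4 and 5 it was -3.37, -6.94 and 0.08. Without the cells that had a *Pvalb* read it was -4.78. The earlier dates hold all L5 cells, so layer and series are partly joined in these values.

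In S1, the means of *Sdc3* and *Gpc1* were higher in L5. *Sdc3* had a mean of 3.72 in L4 and 5.63 in L5. The difference of 1.91 was above its SD of 1.295, and L5 was higher on 3 of 3 dates, by 3.23, 0.64 and 2.12. It was 0.90 without the cells that had a *Pvalb* read. *Gpc1* differed by 1.29 (SD 1.19) and was higher in L5 on 3 of 3 dates, by 0.43, 0.86 and 2.67. It was 0.75 in the June and July dates alone and 0.56 without the cells that had a *Pvalb* read. *Sdc4*, a syndecan of focal contacts that is also made by glia, was read in 11 of 34 L4 and 1 of 16 L5 cells. It differed by -1.09 (SD 1.197), and by -0.84, -0.85, -0.98 and -0.87 without dates 3, 4, 5 and 9.

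In V1, no core protein was 1 or more apart between layers over all kept cells. The means within the 2 dates were -2.61 for *Sdc2*, -1.43 for *Sdc4*, -2.82 for *Gpc1* and -1.70 for *Gpc5*. Those of *Sdc3* and *Gpc6* were 0.92 and 0.83. These dates, 3 and 5, held only 2 and 3 V1 L4 cells beside 5 and 4 V1 L5 cells. The *Gpc5* value came from reads in 1 L4 cell. *Sdc4* was read in 8 of 42 L4 cells and in 1 of 17 L5 cells, there with 1 read. In S1, 2 of the 9 genes were at least 1 higher in L5 and 2 at least 1 lower, and in V1 these counts were 0 and 1. Over all genes tested, 20.8% were higher and 8.13% lower in S1 L5 than in S1 L4 (8147 genes, median difference 0.28), and 17.4% higher and 16.1% lower in V1 L5 than in V1 L4 (8396 genes, median 0.03). In each layer comparison 3 of the 9 genes passed the filter. The area and layer comparisons share cells, so their values are not independent of each other.

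**Figure D3:**
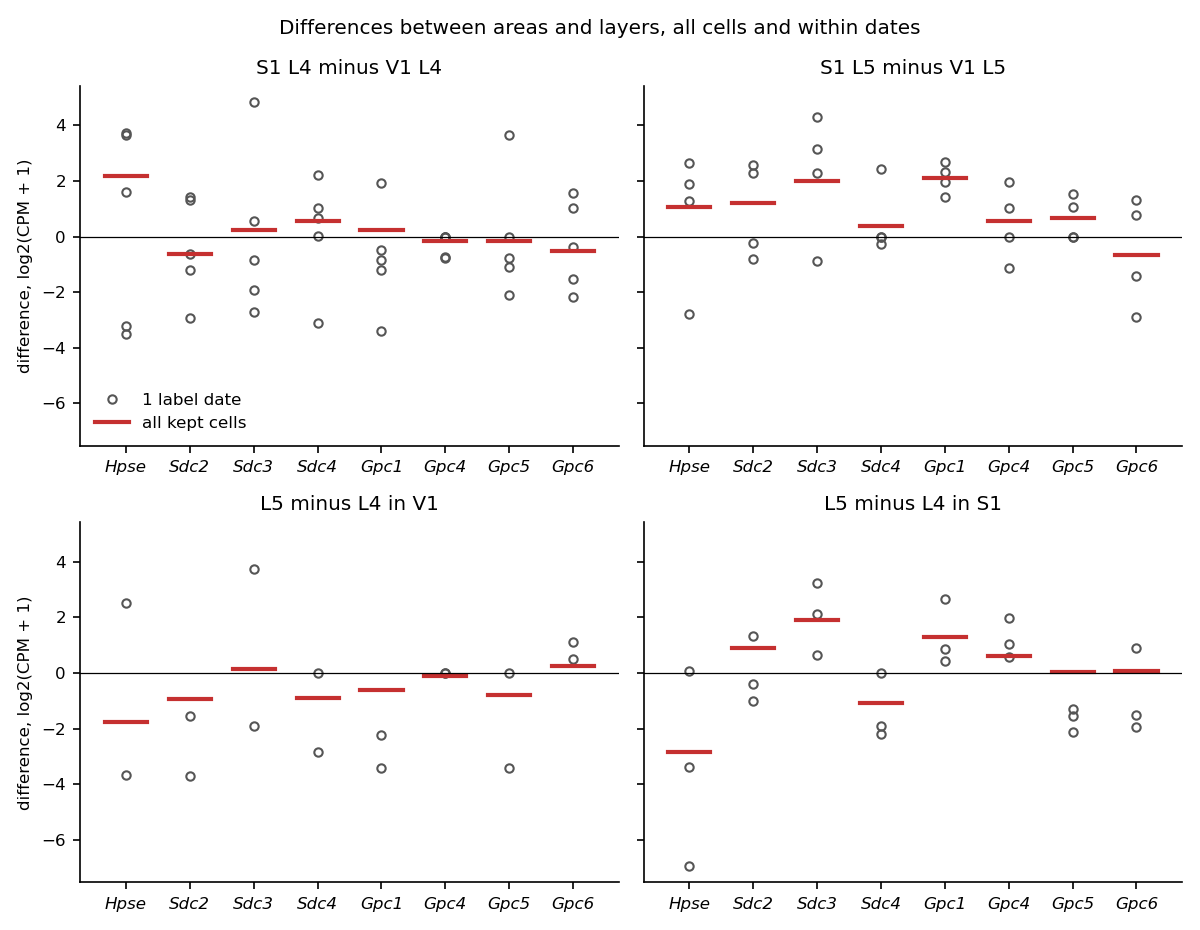
Differences of mean log2(CPM + 1) between areas (top) and layers (bottom), over all kept cells (red bars) and within each date that held at least 2 cells of both groups (open circles), for the 8 genes with a read. *Hpse* has dates on both sides of 0 in all 4 panels, while *Gpc1* in L5 is above 0 on 4 of 4 dates.

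The core proteins were then set against the presence of an *Hpse* read within L4 of each area. In V1 L4, 22 cells had an *Hpse* read and 20 had none, with median totals of 972448.5 and 1122903.5 counts. *Sdc3* was read in 16 of the 22 (72.7%, 49.8 to 89.3) and in 10 of the 20 (50.0%, 27.2 to 72.8). Its median was 94.8 CPM in cells with an *Hpse* read and 0.300 CPM in cells without one, and the highest values were 249 and 152.4 CPM. The difference of mean log2(CPM + 1) was 2.07, above its SD of 0.76 over 3 dates, on which it was 3.04, 1.79 and 3.18. It was between 1.71 and 2.35 when 1 date was left out, and 1.003 without the cells that had a *Pvalb* read. The other core proteins were less than 1 apart, from -0.67 for *Gpc1* to 0.85 for *Sdc4*.

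In S1 L4, 23 cells had an *Hpse* read and 11 had none, with median totals of 1379700 and 1065500 counts. *Sdc3* was read in 16 of 23 and 5 of 11 cells, with medians of 18.5 and 0 CPM and highest values of 446 and 218 CPM. The difference of 1.24 had opposite signs on the 2 dates that allow it, -4.48 on date 7 and 2.28 on date 9. It was 0.32, 0.85, 0.95 and 0.96 without dates 2, 5, 8 and 9, and 2.71 without date 7. *Sdc4* was read in 9 of 23 and 2 of 11 cells and differed by 1.0002, and by 0.994, 0.998, 0.80 and 0.41 without dates 4, 5, 8 and 9. Without the cells that had a *Pvalb* read it was -0.48, with 14 cells with an *Hpse* read and only 2 without one. Whether the *Sdc3* difference itself differed between the areas was not tested.

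By the same measure, 1 of 8 core proteins was at least 1 higher in V1 L4 cells with an *Hpse* read, and 2 of 8 in S1 L4, and 0 were at least 1 lower in either. Of the 8, only *Sdc3* passed the filter on low counts, in both areas, so the *Sdc4* call in S1 is of a gene outside the filtered set. Over all genes in that set 13.3% were higher and 11.3% lower in V1 (7404 genes), and 20.1% higher and 13.8% lower in S1 (6619 genes). In L5 only 4 V1 and 6 S1 cells had an *Hpse* read. There the *Sdc3* mean was 2.08 with and 4.10 without an *Hpse* read in V1, and 4.77 with and 6.14 without one in S1.

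**Figure D4:**
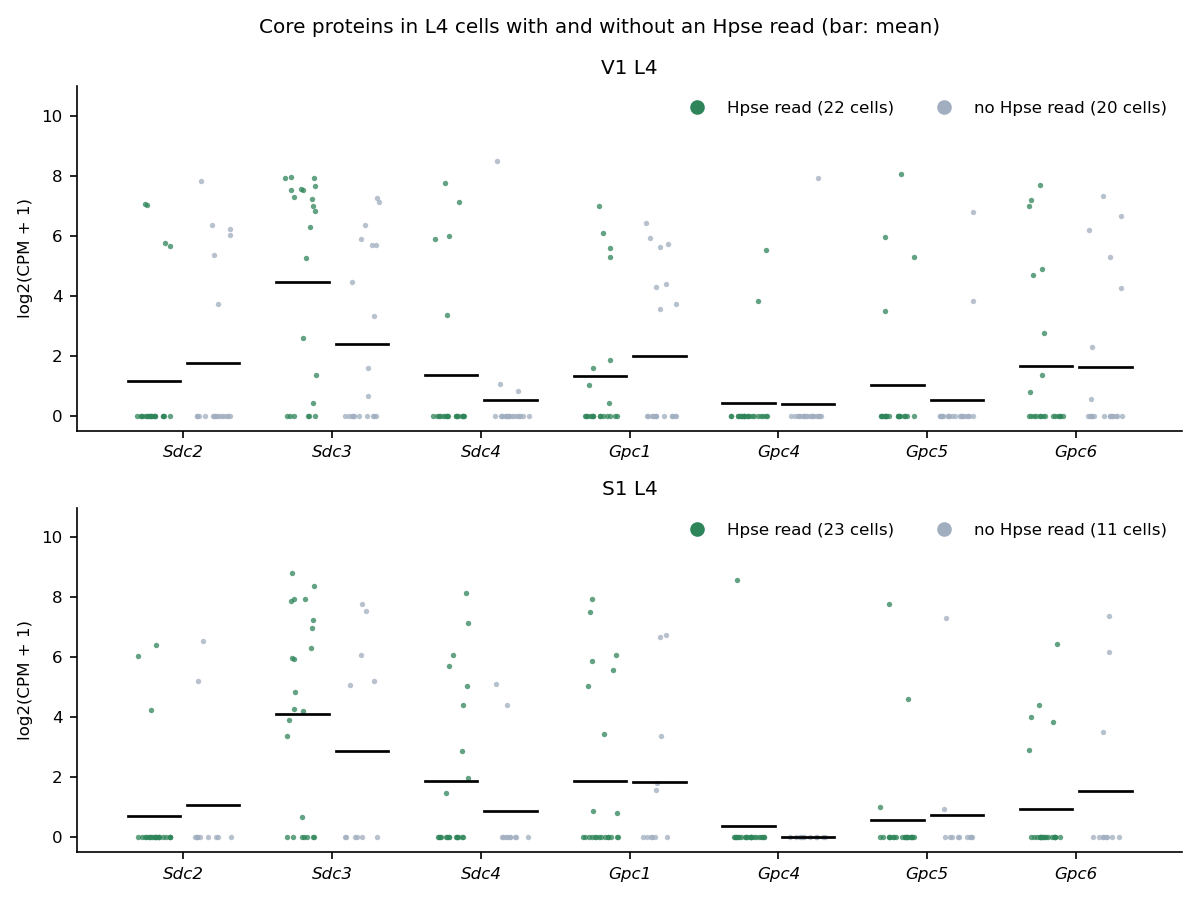
Core proteins in L4 cells with an *Hpse* read (green) and without one (grey), in V1 (top) and S1 (bottom), as log2(CPM + 1) (points: cells, black bars: means). The *Sdc3* means are 4.47 and 2.41 in V1 and 4.12 and 2.88 in S1, and both kinds of cell overlap for each gene.

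*Sdc4* reads went with glial genes. The gene lies on chromosome 2 from 164424247 to 164443887, on the minus strand, and *Sdc2* on chromosome 15 from 32920723 to 33034935, on the plus strand. In the 76 L4 cells, the 3 genes with the highest Pearson correlation to *Sdc4* over cells were *Cd63* (r = 0.62), *C1qa* (0.59) and *P2ry12* (0.57), of which the last 2 are microglia genes. The summed level of the 7 microglia genes had a median of 372 CPM in the 19 L4 cells with an *Sdc4* read and 45.4 CPM in the 57 without, with ranges of 0 to 1428 and 0 to 1512 CPM. The median of the 6 astrocyte genes was 375.5 and 99.3 CPM, and that of the 5 oligodendrocyte genes 296 and 170 CPM. The gap in the microglia genes was present in each area, with medians of 972 and 42.5 CPM in V1 and 211 and 45.4 CPM in S1. All 7 microglia genes had reads in both areas, and their part in the *Sdc4* values was not tested. For *Hpse*, the microglia medians with and without a read were 111.1 and 30.8 CPM in V1 L4 and 193 and 187 CPM in S1 L4, and the astrocyte medians 119.1 and 30.5 CPM and 308 and 99.9 CPM. For *Sdc3* the microglia medians were 78.7 and 248 CPM in V1 L4 and 193 and 187 CPM in S1 L4. Its oligodendrocyte medians were 79.0 and 56.6 CPM in V1 and 651 and 287 CPM in S1, and its astrocyte medians 53.6 and 113.1 CPM and 163.4 and 307 CPM. The part of glial RNA in the *Hpse* and *Sdc3* values was not tested either.

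Among the 9 genes themselves there was little that went together. Over the 76 L4 cells, r between 2 members lay between -0.19 and 0.32 in 28 pairs, with a median of -0.02. The highest was that of *Gpc5* and *Gpc6*, read together in 6 cells. They are neighbours on chromosome 14, from 115092215 to 116525179 and from 116925315 to 117976544, both on the plus strand, with 400135 bases and no protein-coding gene between them. *Gpc4* and *Gpc3* are neighbours on chromosome X, from 52053021 to 52165252 and from 52272426 to 52613950, both on the minus strand. *Gpc4* was read in 9 cells, *Gpc3* in none. With so many cells at 0 these correlations are a description of the libraries, which share depth and date.

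One of the genes most like *Hpse* acts on the same chains. Over the 76 L4 cells and 9200 genes, the 5 highest r were those of *Gabrd* (0.56), a delta subunit of GABA-A receptors, *Pde9a* (0.50), a cyclic GMP phosphodiesterase, *Hs3st1* (0.48), a heparan sulfate 3-O-sulfotransferase, *Cplx2* (0.46), a complexin of transmitter release, and *Sema6d* (0.45), a semaphorin. Within an area, r of *Hs3st1* was 0.34 in V1 and 0.55 in S1. In the same order r was 0.49 and 0.59 for *Gabrd*, 0.42 and 0.48 for *Pde9a* and 0.40 and 0.45 for *Cplx2*. For *Sema6d* it was 0.53 in V1 but 0.15 in S1. By Spearman's rho, 3 of the 5 genes were again among the 5 highest. The lowest r were those of the calcium-binding proteins *Calb1* (-0.54) and *Calb2* (-0.52). *Sprn* (0.51), *Shisa4* and *Bcas2* were most like *Sdc3*, *Fam213b* (0.55), *Exog* and *Fundc2* most like *Sdc2*, and *Bicd2* (0.49), *Arhgef6* and *Ier3* most like *Gpc1*. For *Gpc5* these were *Fam76a* (0.42), *Pcdha9* and *Cbll1*, and for *Gpc6* *Pptc7* (0.41), *Zfat* and *Nup133*. Each was picked as the highest over all genes tested.

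*Hs3st1* adds a rare sulfate to the chains that heparanase cuts. It was read in 13 of 22 V1 L4 cells with an *Hpse* read and 3 of 20 without, and in 21 of 23 and 4 of 11 S1 L4 cells. With and without an *Hpse* read, its mean log2(CPM + 1) was 4.30 and 1.03 in V1 and 6.76 and 2.36 in S1. In V1 the difference was 3.74, 4.33 and 2.88 on the 3 dates that allow it. In S1 it was 4.402 over all cells but 0.60 and 0.73 on the 2 dates that allow it. Since *Hs3st1* was picked by its likeness to *Hpse* in these cells, its difference is no separate result. In L5 it was read in 3 of 4 and 10 of 13 V1 cells with and without an *Hpse* read, and in 4 of 6 and 4 of 10 S1 cells. *Hs3st1* lies on chromosome 5 from 39613935 to 39755475 and *Hpse* on the same chromosome from 100679484 to 100719716, both on the minus strand.

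**Figure D5:**
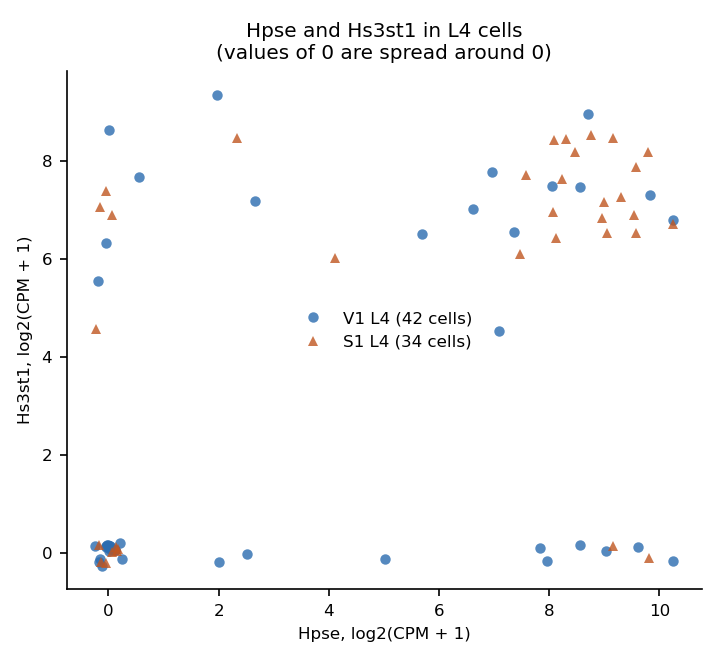
*Hpse* against *Hs3st1* in the 76 kept L4 cells, as log2(CPM + 1) on both axes (circles: V1 L4, triangles: S1 L4). Of 45 cells with an *Hpse* read, 13 in V1 and 21 in S1 also have an *Hs3st1* read, and of 31 without one, 3 and 4.

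The wider pathway was read from 5 lists. Of 18 genes that modify the chains, 3 were at least 1 higher in S1 L4 than in V1 L4 and 0 lower, beside 8.12% higher and 7.66% lower over all genes tested, and 6 of the 18 passed the filter on low counts. They were *Hs3st1* (2.59, SD over dates 2.70), the 6-O-sulfotransferase *Hs6st2* (1.61, SD 1.43) and the extracellular sulfatase *Sulf2* (2.50, SD 2.76). *Sulf2* was higher in S1 on 5 of 5 dates. Of 11 genes that build the chains, 0 were 1 or more apart in L4, and of 14 genes of breakdown and shedding 1 was higher, the lysosomal iduronidase *Idua* (2.10, SD 2.81). Of 13 other proteoglycans *Spock1* alone was higher (1.19, SD 1.40), and of 18 partners of the core proteins 1 was higher, the chain-binding growth factor *Ptn* (1.0008, SD 2.96), and 1 lower, the glypican receptor *Lrrtm4* (-1.17, SD 1.65). The median difference of these lists lay between -0.33 and 0.09, beside 0.01 over all genes. Of the lists in the order of the text after the first, 9, 9, 7 and 13 genes passed the filter. *Hs6st2*, *Idua*, *Spock1*, *Ptn* and *Lrrtm4* were named here after their values were seen.

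The levels of the lists put the 9 genes in scale. Per length and over all kept cells, the highest of each list were *Ctsl*, the lysosomal cathepsin L that activates heparanase (164.3 ± 126.4 RPKM), *Nrxn3*, a neurexin that can carry heparan sulfate (157.1 ± 98.3), *Sdcbp*, the syntenin that binds syndecan tails (149.7 ± 120.3), *Extl2* of chain synthesis (117.1 ± 105.4) and *Hs3st1* (57.7 ± 80.4, SD over cells throughout). *Hpse* at 67.9 RPKM thus lay between *Hs3st1* and *Extl2*, within the spread between cells. *Ctsl* was higher in S1 than in V1 L4 on 5 of 5 dates, by 0.96 over all cells (SD 0.57). *Hpse2*, the relative of heparanase without enzyme activity, had no read in any kept cell, and the remaining syndecan *Sdc1* and glypican *Gpc2* were read in no more than 2 cells of any group.

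In L5, S1 against V1, 3 genes of chain modification were at least 1 higher and 1 lower, 3 and 2 of chain synthesis, 1 and 1 of breakdown, 2 and 0 of other proteoglycans and 2 and 2 of partners. Of these lists 5, 7, 5, 7 and 11 genes passed the filter, and over all genes tested 23.6% were higher and 10% lower. *Hs3st1* was the modifying gene on the V1 side (-1.16, SD 2.09). Over all cells its sign in L5 was opposite to that in L4, without a test of the difference. Within dates neither layer kept 1 sign. S1 minus V1 was -0.89, 2.59, 0.95, 4.91 and -1.79 in L4. In L5 it was 0.54, -3.55, -0.005 and -3.07. Between layers *Hs3st1* differed by 1.81 in V1 (SD 3.16) and by -1.94 in S1 (SD 3.52). In V1, 2 of 18 partners were at least 1 higher in L5 and 5 lower, beside 17.4% and 16.1% of all genes tested. In S1 these counts were 3 and 4, beside 20.8% and 8.13%. Of the 18, 14 and 11 passed the filter. *Ptprd*, a receptor phosphatase of the family that binds heparan sulfate, was among the lower partners in both areas, at -4.00 (SD 2.61) and -3.25 (SD 0.87). It was named after its values were seen. In V1 L5, 4 genes of chain modification were higher and 0 lower, and 3 and 1 of chain synthesis. For breakdown these counts were 2 and 0, and for other proteoglycans 1 and 2. In S1 L5 these lists had, in the same order, 4 and 1, 1 and 1, 0 and 1, and 1 and 0. Of them 5, 9, 8 and 7 genes passed the filter in V1, and 6, 9, 7 and 7 in S1.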

How the data were processed

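Single-cell cDNA libraries were sequenced, and the submitters' processing notes name mm10, STAR 2.4.2a and bcl2fastq 2.20. The authors deposited raw read counts per gene, whose counting tool and strand setting are not given in the sources used here, and RPKM values, made with rpkmforgenes and RefSeq gene models. From the counts, 24490 entries were summed to 23998 symbols (279 had more than 1 entry), filtered by cell as described, and turned into log2(CPM + 1) with Python 3.11.15, NumPy 2.4.6, pandas 2.3.3 and SciPy 1.17.1. TMM library sizes came from edgeR 4.0.16 (R 4.3.3). A gene was called when 2 means were at least 1 apart. The shares over all genes were taken among genes with at least 32 counts in at least 10 compared cells. Counts of members and of list genes were made without this filter. Dates with at least 2 cells of both groups gave the SD, each title date being taken as a recording day. Scripts were tested on simulated data. The members, lists and tests were chosen with earlier results of these data known. Pathway genes were named if at least 1 apart in S1 L4 against V1 L4 with 1 sign on every date, or among the 2 highest of a list by RPKM. The genes most like a member were the 5 (*Hpse*) or 3 with the highest r over L4 cells. Places are from GENCODE on GRCm38. Alternatives were TMM, RPKM, thinning, pseudocounts of 0.1 and 10 CPM, within-date means, leaving out each date, and other cell filters.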

Additional observations from a re-analysis of the deposited data

Results flagged for a closer look

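The values in this paragraph come from cells left out of the comparisons and were picked because they exceeded every kept cell. In a V1 L4 cell of date 2 with 745 genes and 99195 counts, *Sdc3* stood at 1552 CPM and *Gpc6* at 1432 CPM, beside highest values of 446 and 205 CPM among the kept cells. In the glutamatergic V1 L5 cell of date 5, *Gpc3* stood at 54.0 CPM (41 of 759764 counts), while it had no read in any kept cell.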

How the results depend on the processing

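No paired analysis by animal or replicate number was possible because the labels give neither across groups, and the dates that groups share gave the values within dates. A difference was taken as close when it moved by no more than its SD over dates, a count or a share of genes when within 1.5 times, and a share of cells when inside its interval. The SD over dates was often larger than the difference, so close does not mean stable. The *Hpse* difference between areas in L4 (2.17, SD 3.58) counted as close at 0.46 within dates and at 4.19 without *Pvalb* cells. *Gpc3*, at 0 in every kept cell, could not move. By these rules, 93 values that answer a comparison stayed close and 39 moved. Of the other values 889 stayed close, 65 moved and 4, all of differences of at least 1, changed sign. Sign changes of smaller differences were not counted apart, such as that of *Gpc1* between areas in L4 (0.23, and -0.81 within dates). The number of the 9 genes at least 1 apart was 1 for S1 against V1 L4, and 2 with a pseudocount of 0.1 CPM, 0 within dates and 3 without cells with a *Pvalb* read. In L5 it was 4, and 2 with RPKM, with a pseudocount of 10 CPM and within dates, and as low as 2 with a date left out (dates 5 and 6). Between layers in V1 it was 1, and 2 after thinning or without *Pvalb* cells, 5 with 0.1 CPM, 4 within dates, 3 in June and July alone and 1 to 3 with a date left out (3 without date 8). In S1 it was 4, and 2 with RPKM or 10 CPM. For core proteins by *Hpse* read in V1 L4 it was 1, and 2 after thinning, within dates, without *Pvalb* cells and in either series alone, 3 with 0.1 CPM or at least 5 *Hpse* reads, and up to 4 with a date left out (date 2). In S1 L4 it was 2, and 1 with TMM or with cells lacking *Sst* kept, 0 with RPKM or 10 CPM, 4 within dates and as low as 0 with a date left out (dates 5, 8 and 9). There *Sdc3* changed sign within dates (-1.10) and in September alone (-0.19). *Sdc4* did so without *Pvalb* cells (-0.48, with only 2 cells without an *Hpse* read) and in June and July alone (-0.20). The share of S1 L4 cells with an *Hpse* read was 87.5% without *Pvalb* cells. The share of all genes at least 1 apart was 15.8% and 33.6% between areas in L4 and L5 and 33.5% and 28.9% between layers in V1 and S1. It was 8.90%, 21.1%, 19.1% and 17.3% with no filter on low counts, and at least 2 apart were 1.05%, 5.45%, 5.21% and 4.60%. By Spearman's rho 3 of the 5 genes most like *Hpse* were shared. The causes were not tested. Thinning each L4 cell to 250000 reads left *Gpc4* in 3 V1 and 1 S1 cells, as before, and took *Gpc1* from 16 to 12 V1 and from 14 to 11 S1 cells.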
